A study of Mus musculus with 8 samples.

Results

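Solute carriers are membrane proteins that move amino acids, sugars, ions, metals, vitamins and metabolites across the plasma membrane and the membranes of organelles, and their genes are named by family with the prefix Slc. The genes described here were the protein-coding Slc genes of GENCODE release M21 whose mRNA carried at least 1 N6-methyladenosine (m6A) peak in mouse embryonic stem cells (ESCs). A gene was chosen when a deposited peak shared at least 1 base with its exons on its strand. The genes were thus chosen by the peak calls of the same lists described here. Of 371 annotated protein-coding Slc genes, 86 met this rule (23.2%, 95% Wilson interval 19.2 to 27.7), and 285 did not. The same rule was met by 28.3% of all 21951 protein-coding genes. The 86 genes came from 32 Slc families. In 3 of them the symbol does not name a carrier. Slc4a1ap and Slc9a3r1 are named as proteins associated with a carrier, and Slc7a6os as a gene on the strand opposite to Slc7a6.

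m6A is placed on mRNA by a methyltransferase that acts in short sequence contexts around GGAC and, more widely, DRACH, in which D is A, G or T, R is A or G and H is A, C or T. It is often found in long internal exons, in last exons and around stop codons, and reader proteins of the YTH family bind it and influence mRNA decay. In ESCs the carriers for glucose, neutral amino acids, lactate and phosphate supply growth and metabolism, while many other carriers act mainly in kidney, liver, intestine or nerve.

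The series measured m6A by immunoprecipitation of methylated RNA fragments followed by sequencing (MeRIP-seq) in E14 mouse ESCs. The cells carried a Dux transgene inducible by doxycycline (Dox) and a tdTomato reporter under the Mervl promoter, and they were given DMSO, the solvent, or Dox for 24 h. Dux drives ESCs toward a state that resembles the 2-cell embryo. The 8 libraries formed 4 groups of 2 replicates each, since each treatment had immunoprecipitated (IP) and input libraries. Both treatment arms shared the line and its transgenes, and whether it is a single clone was not given in the sources used here.

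The deposited values were 1 peak list per treatment, in which the replicates were already combined, so that no spread between replicates and no test between treatments could be had. There were 18895 peaks for DMSO and 13001 for Dox. Each peak carried a score, read as the authors' −log10 p-value and above 10 in every peak, and a peak's place in its list is given as the percentile of that score. Expression and read depth were not analysed here, so that less methylation, less RNA and shallower sequencing cannot be told apart. All 10 ESC marker genes looked up, among them Pou5f1, Sox2 and Nanog, carried peaks in both lists, and of 6 markers of 2-cell-like cells 2 carried a DMSO peak and 6 a Dox peak.

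To show what the peaks of these mRNAs look like, 9 short sequences from them are printed, each with 1 or more motifs in capitals. They are 25 nt from within the peak, on the strand of the mRNA and in the mm10 build (GRCm38). The first 7 are centred on the GGAC closest to the middle of a peak at the stop codon or in the 3′UTR. The other 2 come from peaks with no GGAC and mark 1 DRACH each.
Slc7a5, DMSO peak at chr8:121882700-121882949, minus strand: aggcgtgctgGGACctgaggcctgg
Slc38a2, DMSO peak at chr15:96687967-96688466, minus strand: aaacccctggGGACtgtgtagacgc
Slc2a1, DMSO peak at chr4:119136728-119137277, plus strand: ataggggtccGGACtccattttagg
Slc2a3, DMSO peak at chr6:122729534-122730133, minus strand: ggatgaaccaGGACtgcttctgagt
Slc25a3, DMSO peak at chr10:91116799-91117073, minus strand: aaagtaacatGGACtgaatctgctt
Slc29a1, DMSO peak at chr17:45585275-45585674, minus strand: gcctgcgggtGGACttggaattcag
Slc44a2, DMSO peak at chr9:21353773-21353922, plus strand: agccctctcaGGACgccgggatagg
Slc20a2, spliced DMSO peak in the 5′UTR at chr8:22506637-22535225, plus strand: gtaaccaaacGAACTgtaccgacag
Slc43a1, the whole Dox peak at chr2:84863179-84863203, plus strand: aaaaaaggAAACAaacagaacaaaa

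Coding peaks can be shown whole. Slc16a6 and Slc16a1 belong to the monocarboxylate carriers, and each had a peak within a long internal coding exon in both lists. The DMSO peaks are printed with every GGAC in capitals.
Slc16a6, 225 nt at chr11:109455323-109455547, minus strand: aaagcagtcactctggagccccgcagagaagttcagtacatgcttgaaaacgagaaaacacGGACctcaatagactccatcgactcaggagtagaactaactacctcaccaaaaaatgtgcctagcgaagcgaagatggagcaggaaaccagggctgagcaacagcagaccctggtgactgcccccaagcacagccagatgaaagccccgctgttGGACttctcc
Slc16a1, 125 nt at chr3:104653202-104653326, plus strand: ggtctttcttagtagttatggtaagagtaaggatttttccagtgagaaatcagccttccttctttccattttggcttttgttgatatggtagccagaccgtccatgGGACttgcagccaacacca

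Which Slc genes carried peaks was first read by what the carriers transport, with the Slc families grouped into 9 substrate lists. The share of annotated genes with a peak ran from 0 of 42 to 17 of 47. Over all protein-coding Slc genes it was 23.2%, and over all protein-coding genes 28.3%. The mitochondrial carriers, family Slc25, held 17 genes with a peak of 47 (36.2%, 24.0 to 50.5), the carriers of metals and heme 11 of 33 (33.3%) and the nucleotide sugar carriers, family Slc35, 9 of 27 (33.3%). Amino acid and neurotransmitter carriers held 15 of 65 (23.1%), carriers of ions and pH 12 of 59 (20.3%), and those of carboxylates, sulphate and bile acids 5 of 26 (19.2%). The list of sugar carriers, which took in the whole family Slc5, held 5 of 34 (14.7%). The list of vitamins, nucleosides, lipids, choline and others held 12 of 38 (31.6%). No gene of the 42 organic ion and vesicular transmitter carriers had a peak, and a count of 0, taken as up to 3 counts of the total, allows a share of up to 7.14% (the upper Wilson limit is 8.38%). The Wilson interval of every other list held the share of all protein-coding genes. Each of them except that of the mitochondrial carriers also held the share of all Slc genes. The interval of the mitochondrial carriers began just above that share (24.0%, beside 23.2%). Differences between the lists were not tested. These lists describe which genes were in the peak lists, and a gene whose RNA is low or missing in ESCs cannot give a peak.

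**Figure D1:**
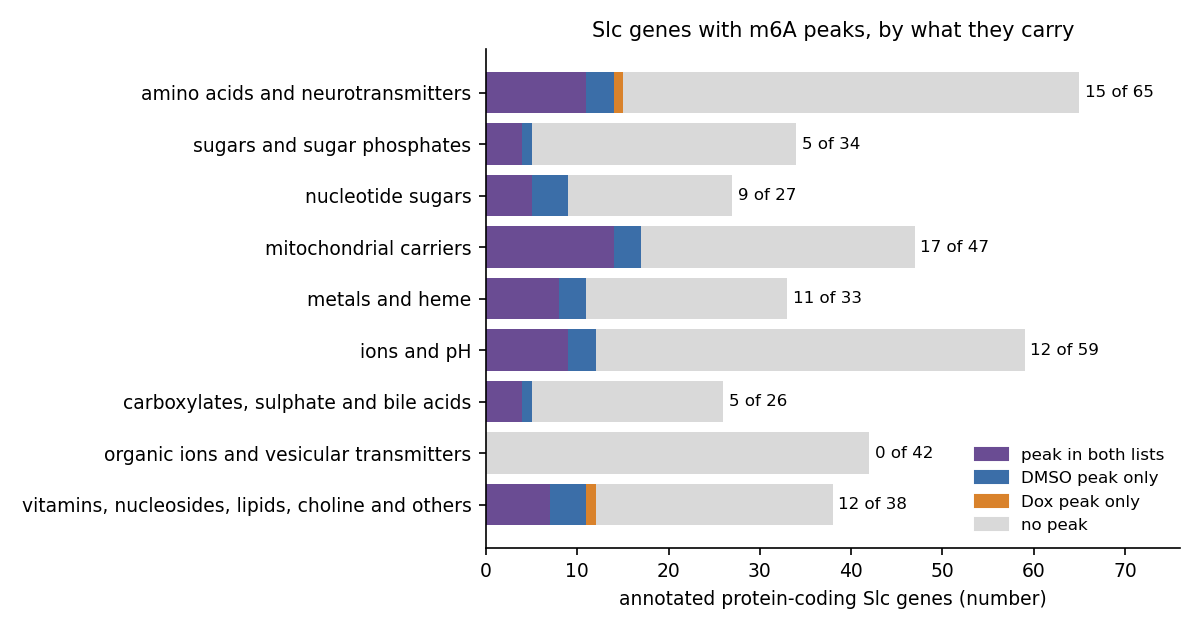
Annotated protein-coding Slc genes (horizontal axis, number of genes) in each of 9 substrate lists, split into genes with peaks from both treatments, from DMSO only, from Dox only and from neither. The mitochondrial carriers hold 17 genes with a peak of 47 and the organic ion and vesicular transmitter carriers 0 of 42. Over all protein-coding Slc genes the share is 23.2%, and over all protein-coding genes 28.3%.

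DMSO peaks lay over 84 of the 371 Slc genes (22.6%, 18.7 to 27.2) and Dox peaks over 64 (17.3%, 13.7 to 21.4), against 27.6% and 22.2% of all protein-coding genes. Peaks in both lists were found for 62 of the 86 genes (72.1%), against 76.1% of all protein-coding genes with a peak. A DMSO peak only was found for 22 (25.6%), against 21.5%, and a Dox peak only for 2 (2.33%), against 2.40%. More DMSO than Dox peaks were counted for 51 genes (59.3%, against 59.1%), more Dox peaks for 9 (10.5%, against 12.7%), and equal numbers for 26. Since peak calls chose the genes, these counts are a description. How the 86 genes were spread over the lists lay near the shares over all genes. The Slc genes held 195 DMSO and 136 Dox peaks, a ratio of 1.43 (1.15 to 1.78), beside 1.45 (1.42 to 1.49) for the peaks of other protein-coding genes. With the same number of top-scoring peaks taken from each list, 13001, the Slc ratio was 0.963 (0.758 to 1.22). At this setting 8 Slc genes were DMSO only and 6 Dox only. Equal list sizes take away a surplus of DMSO peaks over all genes by construction. No value of other genes at this setting is given here, so the Slc genes are not compared with them there.

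A DMSO peak was counted as shared when a Dox peak overlapped it by at least 1 base. Of the DMSO peaks over Slc genes 118 of 195 were shared (60.5%, 53.5 to 67.1), beside 57.02% in other genes, and of the Dox peaks 129 of 136 (94.9%, 89.8 to 97.5), beside 92.8%. Peaks of one list alone were short and low in score. The 77 DMSO-only peaks had a median length of 75 nt and a median score of 10.9, and the 118 shared ones 200 nt and 12.05. In the other genes the medians were 50 nt and 11.02 for DMSO-only peaks and 200 nt and 12.2 for shared ones. In 99 pairs in which 1 DMSO and 1 Dox peak overlapped only each other, the DMSO peak was the longer in 67 (67.7%, beside 68.9% of 8686 such pairs in other genes), the Dox peak in 17 (17.2%, beside 10.9%), and lengths were equal in 15 (15.2%, beside 20.2%). The median lengths were 175 and 150 nt, beside 200 and 150 nt. In 12 pairs the exon blocks were identical (12.1%), beside 17.5% in other genes.

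The position of the peaks along the mRNA was not used to choose the genes. In the 86 Slc genes 95 of 191 DMSO peaks with their middle on the transcript lay in the 3′UTR (49.7%, 42.7 to 56.8), beside 24.1% (23.5 to 24.7) in other protein-coding genes. Coding sequence held 83 (43.5%, 36.6 to 50.5), beside 72.5%, and the 5′UTR 13 (6.81%), beside 3.38%. The Dox list gave 66 of 132 in the 3′UTR (41.6% to 58.4%), beside 24.5%, and 42.4% in coding sequence, beside 71.7%. In both lists the counting intervals of the Slc genes thus lay apart from those of other genes for the 3′UTR and for coding sequence. Peaks are not independent replicates, and this difference was not tested.

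The same layout showed at the last exon. It held 66.5% of the DMSO peaks (59.5 to 72.8), beside 43.2% in other genes, and 68.9% of the Dox peaks, beside 46.5%. Peaks that spanned a splice junction made up 10.3% of the DMSO peaks (6.74 to 15.3), beside 26.8%, and 6.62% of the Dox peaks, beside 22.01%. Within 200 nt of the stop codon lay 29.3% of the DMSO peaks (23.3 to 36.1), beside 22.8% (22.2 to 23.5), and 31.1% of the Dox peaks (23.8 to 39.4), beside 25.1% (24.3 to 25.9). At the stop codon the intervals of the Slc genes and the other genes overlapped in both lists.

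The lengths of the mRNA parts moved with these shares. The 3′UTR had a median of 1650 nt in the 86 genes, beside 1010 nt in other genes with a peak and 874 nt in the Slc genes without one. Coding lengths had medians of 1480.5, 1512 and 1653 nt. The 3′UTR made up 51.3% of the transcript bases of the Slc genes with a DMSO peak and 39.9% of those of the others. Counted per length, the Slc genes held 0.579 DMSO peak middles per kb of 3′UTR, beside 0.468 in other genes, and 0.622 per kb of coding sequence, beside 1.04. The Dox list gave 0.558 beside 0.407 per kb of 3′UTR and 0.536 beside 0.880 per kb of coding sequence. Per length, peaks were thus about as dense in the coding sequence as in the 3′UTR of the Slc genes, while in the other genes the coding sequence was the denser part. How far gene length and exon number take part in this was not tested. The exon under a coding peak had a median length of 843 nt in the Slc genes and 430 nt in the others for DMSO, and of 856.5 and 675 nt for Dox, where the gap was the smaller.

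**Figure D2:**
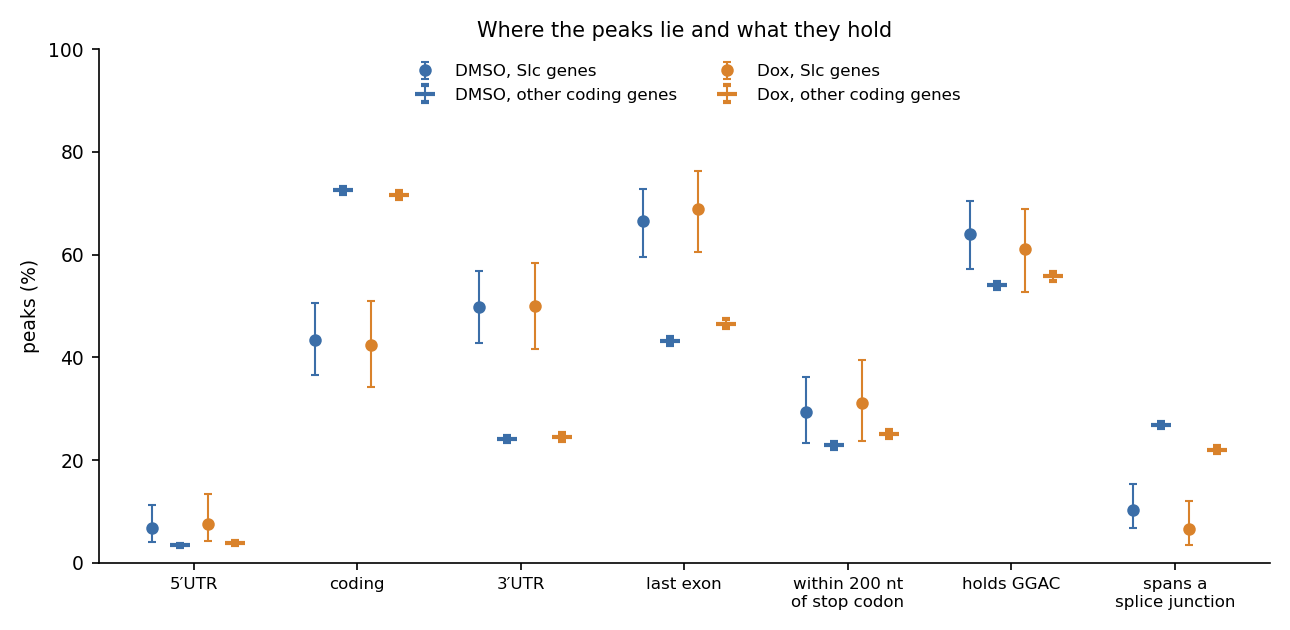
Share of peaks (vertical axis, percent) that lie in each part of the mRNA, hold GGAC or span a splice junction, for Slc genes (dots) and other protein-coding genes (dashes) in the DMSO and Dox lists, with 95% Wilson intervals that cover counting error only. The 3′UTR holds 49.7% of the Slc DMSO peaks and 24.1% of those of other genes, and in the Dox list 66 of 132 Slc peaks lie there, against 24.5%.

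The motif GGAC, searched on the strand of the peak in its exon blocks, was present in 125 of 195 DMSO peaks over Slc genes (64.1%, 57.2 to 70.5), beside 54.0% (53.3 to 54.7) in other genes. In the Dox list it was present in 83 of 136 (61.0%, 52.6 to 68.8), beside 55.8% (55.0 to 56.7). GGAC followed by A, C or T is also a DRACH, and DRACH was present in 86.7% and 83.1%, beside 84.9% and 85.4%. Longer peaks hold a motif more often. Among DMSO peaks of 75 to 150 nt GGAC was present in 39 of 66 over Slc genes (59.1%), beside 49.9% in other genes, and among those over 150 and up to 300 nt in 46 of 55 (83.6%), beside 73.5%. In the Dox list the shorter class gave 30 of 47 (63.8%), beside 51.8%, and the longer one 28 of 36 (77.8%), beside 76.2%, so that there the longer peaks of the Slc genes and of the others were close. Per kb, GGAC occurred 7.09 times under the Slc DMSO peaks and 6.13 times under those of other genes, while whole transcripts held 4.23 and 4.21 per kb. For Dox the values were 7.66 and 6.53 under peaks and 4.196 and 4.24 in whole transcripts. The peaks of the Slc genes were therefore richer in GGAC than their own transcripts, as in other genes, and the gap to other genes was not tested.

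Shared peaks held the motif more often than peaks of one list alone. In the Slc genes GGAC was present in 92 of 118 shared DMSO peaks (78.0%, 69.7 to 84.5) and in 33 of 77 DMSO-only ones (42.9%, 32.4 to 54.0), and the other genes gave 69.2% and 33.9%. Of the 7 Dox-only peaks none held GGAC (upper Wilson limit 35.4%), beside 29.4% in other genes, and the median length of the 7 was 25 nt. Length and score go along with being shared, as the medians above show, and their part in the motif share was not tested.

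Among the amino acid carriers, Slc7a5, which exchanges large neutral amino acids and works as a dimer with Slc3a2, had 4 peaks in each list, all of them shared. Its best DMSO peak scored 21.2 (97.3rd percentile), lay 218 nt past the stop codon and is printed above, while the Dox peak at the same place scored 12.5 (72.8th percentile). The next peak in the 3′UTR scored 17.6 for DMSO and 19.0 for Dox, where it was the best of the gene, and held 6 GGAC in both. The order of these neighbouring peaks thus differed between the lists. Slc3a2, the heavy chain, had 2 DMSO and 3 Dox peaks, all in coding sequence, with best scores of 13.3 and 11.3.

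Slc38a2, a sodium-coupled carrier of small neutral amino acids, had 3 peaks in each list. Its printed 3′UTR peak scored 20.2 for DMSO (96.8th percentile, 500 nt) and 12.2 for Dox (67.5th percentile, 525 nt). The peak thus covered almost the same bases at different places in the lists. Slc38a10 had 5 DMSO and 6 Dox peaks, and its longest DMSO peak, 1275 nt, lay over coding sequence and the stop codon and was met by 3 Dox peaks of 125, 75 and 1000 nt. Slc6a8, the creatine carrier, had 4 and 5 peaks, and its best peak lay in the 5′UTR for DMSO (84.7th percentile) and in the 3′UTR for Dox (90.2nd percentile). Slc7a6 had 3 DMSO peaks, all in the 3′UTR with scores of 10.4 to 11.5, and no Dox peak.

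Among the sugar carriers Slc45a4, a member of a family of proton-associated sugar carriers, had 6 peaks in each list, all shared, spread over the 5′UTR, the coding sequence and the 3′UTR. Its 425-nt peak in coding exon 5 had the same borders in both lists and scored 12.2 in DMSO (64.4th percentile) and 15.9 in Dox (93.6th percentile). Slc2a1 and Slc2a3, the main glucose carriers of early embryonic cells, both had a peak across the stop codon and a further one in the 3′UTR. The 3′UTR peak of Slc2a1 was 550 nt with 8 GGAC, had identical borders in both lists and scored 13.02 in DMSO and 12.96 in Dox. The stop codon peak of Slc2a3 measured 600 nt in DMSO and 575 nt in Dox, with scores of 15.0 and 15.7 and 4 GGAC in both. Both glucose carriers were therefore alike in the lists at their longest peak, but not at every peak. The stop codon peak of Slc2a1 scored 12.5 in DMSO (69.8th percentile) and 10.2 in Dox (3.65th percentile). A 150-nt peak of Slc2a3 600 nt past the stop codon scored 15.9 in DMSO, and its Dox counterpart of 100 nt scored 10.8.

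**Figure D3:**
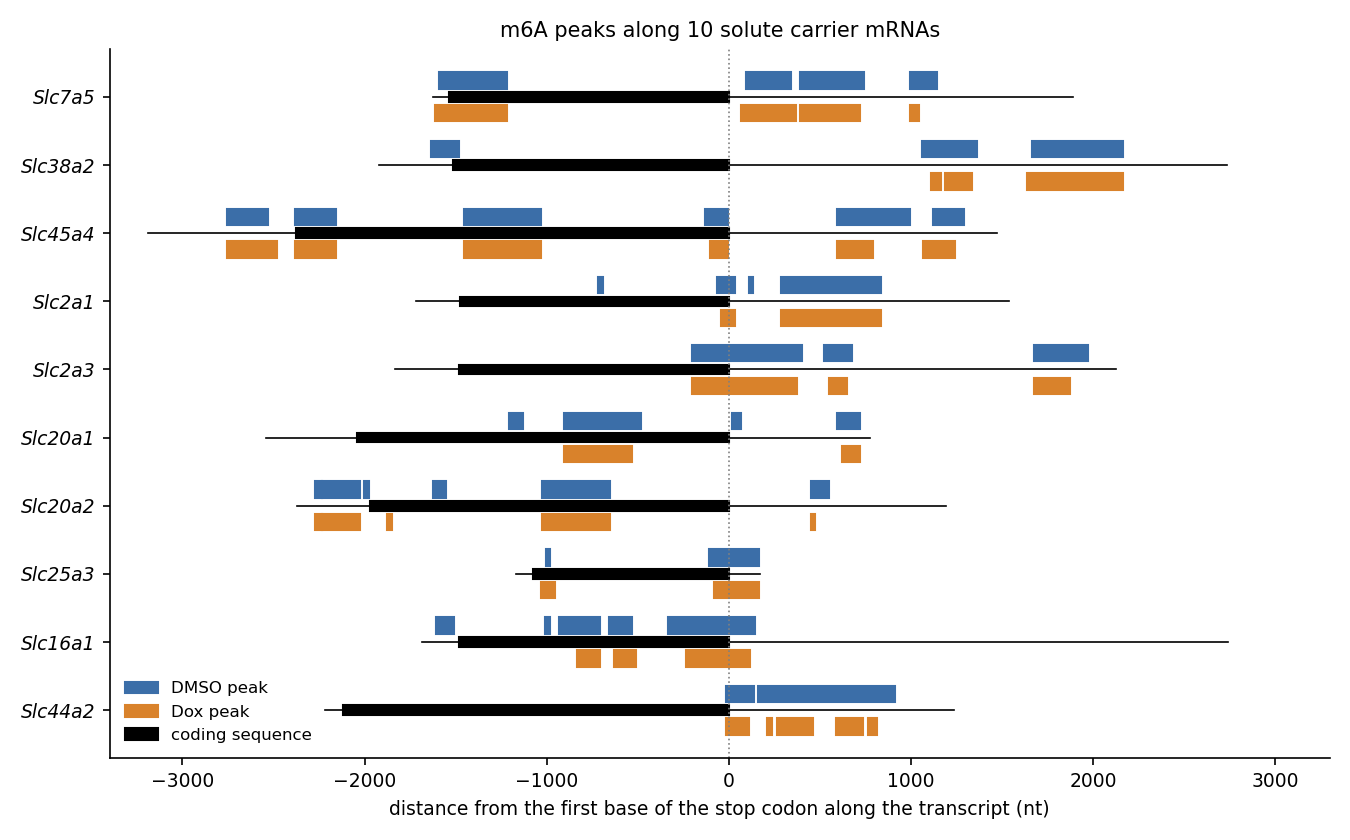
DMSO peaks (above) and Dox peaks (below) along the mRNA of 10 Slc genes, drawn to scale with the coding sequence as a thick bar; the horizontal axis is the distance in nt from the first base of the stop codon. Slc44a2 shows 2 DMSO peaks against 5 Dox peaks over the same stretch, and the 3′UTR peak of Slc2a1 has the same borders in both lists.

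Nucleotide sugar carriers, which bring activated sugars into the Golgi and endoplasmic reticulum, held 18 DMSO and 7 Dox peaks. Slc35b4 had 3 and 2 peaks, 1 of them 10 nt before the stop codon in DMSO and 22 nt before it in Dox. Slc35e2, of unknown substrate, had 3 DMSO peaks and 1 Dox peak in the region of the stop codon and the 3′UTR, and none of them overlapped, although the gene counts as carrying peaks in both lists. Slc35a4, which lies on chromosome 18, had 2 peaks in each list, with best scores of 11.2 and 12.6 in the 5′UTR. Slc35e3 had 3 DMSO peaks, none in Dox, and all 3 had another locus in the genome with at least 98% identity, so that their reads cannot be placed with certainty.

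Mitochondrial carriers of the inner membrane held 31 DMSO and 20 Dox peaks. Slc25a3, the phosphate carrier, had its best peak across the stop codon, with scores of 16.9 in DMSO (93.6th percentile) and 19.0 in Dox (96.8th percentile), at lengths of 275 and 250 nt. The peak lay high in both lists and is printed above. Slc25a28, a mitochondrial iron importer, had 4 and 3 peaks, and its longest, of 425 and 450 nt, lay in the last coding exon. Slc25a36, a carrier of pyrimidine nucleotides, had 3 DMSO and 2 Dox peaks and a best score of 11.8 (55.4th percentile) and 14.9 (90.8th percentile), and each of these peaks had a near-identical locus elsewhere. Slc25a39, a carrier of glutathione, had 2 DMSO peaks with scores of 10.9 and 11.1 and none in Dox.

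Among the metal carriers Slc39a7, a zinc carrier of the endoplasmic reticulum, had 4 peaks in each list, all shared, with best scores of 14.9 and 12.1. All of them also lay over exons of the overlapping gene Gm20427 and cannot be given to one of the genes. Slc39a10, a zinc importer, had 4 DMSO and 3 Dox peaks, and its 850-nt coding DMSO peak was met by Dox peaks of 525 and 225 nt. Slc41a1, a magnesium carrier, had 4 and 2 peaks with best scores of 15.8 and 13.4 in the 5′UTR. Slc30a1, the zinc exporter of the plasma membrane, had 3 shared peaks in each list, all in coding sequence and all in an exon of 4397 nt.

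Carriers of ions held the highest-scoring DMSO peak of all the Slc genes. Slc20a2, a sodium-phosphate carrier, had a spliced 225-nt peak in the 5′UTR that had the same borders in both lists and scored 24.2 in DMSO (98.2nd percentile) and 19.3 in Dox (97.0th percentile). It held no GGAC and 9 DRACH. Slc12a7, a potassium-chloride carrier, had 5 DMSO and 7 Dox peaks, and its best score was 14.3 in DMSO (86.4th percentile) and 11.7 in Dox (54.9th percentile). It had more peaks in the Dox list, with the best of them at a lower place. Slc26a2, a sulphate carrier, had 2 DMSO peaks and none in Dox. Slc4a1ap, grouped here by its family number, had a coding DMSO peak with a score of 18.1 (95.3rd percentile), which in Dox scored 12.7 (75.4th percentile).

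Carriers of carboxylates were led by Slc16a1, which moves lactate and pyruvate. In DMSO its peak at the stop codon was spliced, 475 nt long and scored 13.1 (76.9th percentile). In Dox the peak at that place was 350 nt long, ran from 233 nt before to 116 nt past the first base of the stop codon and scored 19.4 (97.0th percentile), the highest of all Dox peaks over Slc genes. The gene had 5 DMSO and 3 Dox peaks in all, and the other 2 shared peaks stood lower in Dox, at the 31.5th and 63.8th percentile against the 53.2nd and 82.5th. Slc16a6 had 2 and 3 peaks, and its printed coding peak scored 15.5 in DMSO and 12.1 in Dox. Slc13a5, a citrate carrier, had 2 and 1 peaks in the 3′UTR with best scores of 13.1 and 11.1.

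Of the remaining carriers, Slc44a2, a choline carrier-like protein, had 2 DMSO and 5 Dox peaks, the widest surplus of Dox peaks. The 2 DMSO peaks covered 900 bases and the 5 Dox peaks 550, and the single 750-nt DMSO peak was met by 4 Dox peaks of 25, 200, 150 and 50 nt. The larger number thus went with a smaller covered length. Slc19a2, a thiamine carrier, had 4 peaks in each list, and its best score was 16.8 in DMSO (93.5th percentile) and 11.4 in Dox (45.2nd percentile). Slc23a2, a vitamin C carrier, had 1 DMSO peak of 125 nt, which was met by 2 Dox peaks of 50 and 25 nt. Slc29a1, a nucleoside carrier, had 1 peak of 400 nt with identical borders in both lists and scores of 14.8 and 16.1.

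Over the 62 genes with peaks in both lists, the best peak stood at a higher percentile in the Dox list in 22 and at a lower one in 40 (64.5%), and the latter held for 65.0% of all 4730 protein-coding genes with peaks in both lists. The median difference was -9.69 percentile points, beside -6.01 in the other genes, with a range from -66.5 to 54.0. The best is taken from more DMSO than Dox peaks in 29 of the 62 genes and from fewer in 7. In the 26 genes with equal numbers it stood lower in Dox in 16 (61.5%), beside 61.7% of the other genes with equal numbers. The split was thus that of protein-coding genes at large. In 45 of the 62 (72.6%) the best peaks of both lists overlapped, beside 60.5% in the other genes. The widest downward shift was that of Slc35e2, from the 72.7th to the 6.16th percentile, between peaks that do not overlap. Slc6a6, the taurine carrier, went from the 74.4th to the 11.9th. The widest upward shift, 54.0 points, was that of Slc39a1, a zinc importer, from the 31.2nd to the 85.2nd percentile, and Slc25a5 went from the 43.7th to the 90.5th. The best peaks of Slc39a1, Slc25a5 and Slc25a36, all placed higher in Dox, had near-identical loci elsewhere in the genome, as did 17 of the 195 DMSO and 5 of the 136 Dox peaks in all. The percentiles place a peak among the others of its own list and carry no replicate error.

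**Figure D4:**
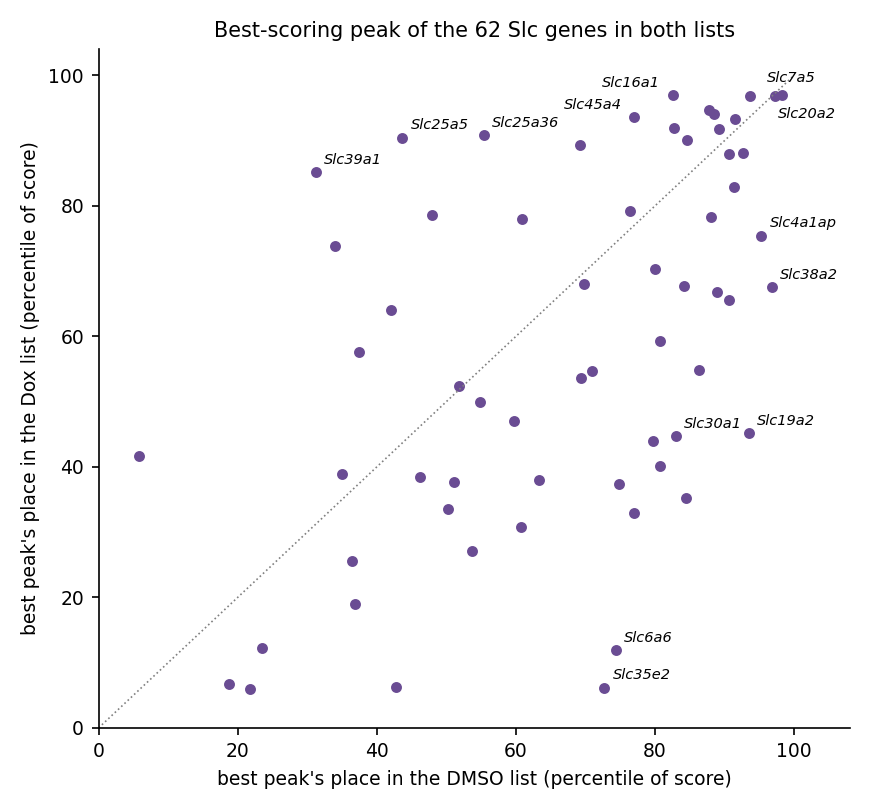
Place of the best-scoring peak of each of the 62 Slc genes with peaks in both lists, as the percentile of its score in the DMSO list (horizontal axis) and in the Dox list (vertical axis), with the line of equal places dotted. In 40 genes (64.5%, against 65.0% of all protein-coding genes with peaks in both lists) the point lies below the line, among them Slc38a2 and Slc19a2, and in 22 above it, and 29 of the 62 genes had more DMSO than Dox peaks to take the best from.

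Genes at the edge of the rule had single weak peaks. Slc43a1, a carrier of branched amino acids, had only the printed Dox peak, 25 nt long and scored 10.1. Slc16a3, a lactate exporter, had a single 25-nt DMSO peak with a score of 10.6, and Slc43a2 a single 125-nt DMSO peak, also with a score of 10.6. Slc52a2, a riboflavin carrier, was the other gene in the Dox list only, with a peak of 75 nt at the 30.2nd percentile. Just outside the rule, Slc22a14 had 10 peaks within its span, all in exons of Oxsr1 on the same strand, and Slc19a1, a folate carrier, had 7 on the other strand, all in exons of Col18a1. Most genes had few peaks, with a median of 2 per gene in each list, and the 10 genes with most held 94 of all 331 peaks (28.4%).

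The places of coding peaks were also compared between close relatives. All 219 pairs of Slc genes with a peak that share a family number and have a full reading frame were aligned, and 10 pairs had at least 50% identical residues. In 6 of the 10 both genes had DMSO peaks over coding sequence, and in 5 of these 6 at least 1 aligned codon lay under the peaks of both. In the Dox list both had coding peaks in 4 of the 10, and all 4 had such a codon. The pairs were set up after the peaks of several of these genes had been seen, and neither count was tested. Peaks can cover much of a protein, as in Slc25a28 with 178 of 364 codons under DMSO peaks, and wide peaks meet more easily. In the remaining DMSO pair, Slc12a4 and Slc12a7, the 13 codons of Slc12a4 under a peak had no counterpart under the peaks of Slc12a7, and in Slc38a1 and Slc38a2 the common part was 1 codon.

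Slc20a1 and Slc20a2, both sodium-phosphate carriers with 61.3% identity, had peaks over the same long coding exon, exon 8 in both, and 86 aligned codons lay under both in each of the lists. In Slc20a1 this peak scored 11.99 in DMSO (59.4th percentile) and 16.6 in Dox (94.6th percentile), and in Slc20a2 11.2 and 12.8. Slc25a28 and Slc25a37, the mitochondrial iron importers, had 67.2% identity and 76 such codons for DMSO, which were all the codons of Slc25a37 under a peak, and 9 for Dox. Slc25a4 and Slc25a5, which exchange ADP and ATP, had 89.6% identity and 34 and 59 such codons in exon 2. The Slc25a5 peaks had near-identical loci elsewhere in the genome. Slc2a1 and Slc2a3, with 65.9% identity, shared 20 and 12 codons at the end of the coding sequence. There the stop codon peak of Slc2a1 begins, while that of Slc2a3 begins further upstream.

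**Figure D5:**
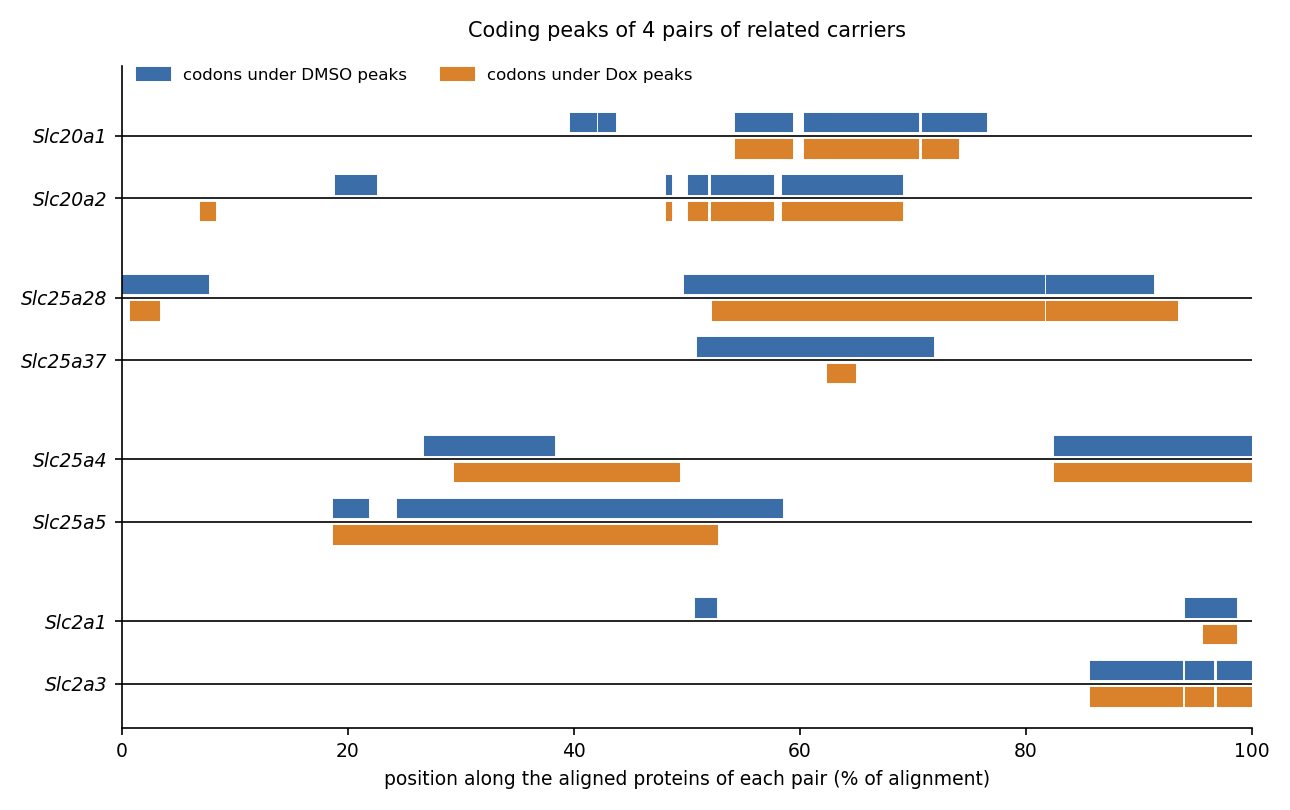
Codons under DMSO peaks (above each line) and Dox peaks (below) along the aligned proteins of 4 pairs of related carriers; the horizontal axis is the position in percent of each alignment, and narrow breaks are alignment gaps. In each pair part of the bars of both genes stand at the same place, 86 codons long in Slc20a1 and Slc20a2 in either list.

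The coding sequences under the DMSO peaks of both genes of a pair are printed to show how much of the sequence the relatives share and where GGAC, in capitals, lies.
Slc20a1, codons 381 to 472, chr2:129208064-129208339, plus strand: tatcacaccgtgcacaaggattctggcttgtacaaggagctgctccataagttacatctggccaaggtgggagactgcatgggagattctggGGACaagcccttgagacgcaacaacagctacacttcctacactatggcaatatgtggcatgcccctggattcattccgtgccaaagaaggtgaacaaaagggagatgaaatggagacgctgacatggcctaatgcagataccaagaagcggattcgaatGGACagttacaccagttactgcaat
Slc20a2, codons 344 to 439, chr8:22560982-22561269, plus strand: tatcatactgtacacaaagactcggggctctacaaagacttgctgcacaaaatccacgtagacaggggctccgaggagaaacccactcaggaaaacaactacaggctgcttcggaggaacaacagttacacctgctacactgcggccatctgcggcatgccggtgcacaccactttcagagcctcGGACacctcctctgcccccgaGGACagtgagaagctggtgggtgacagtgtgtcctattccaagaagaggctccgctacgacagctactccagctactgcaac
Slc25a28, codons 187 to 262, spliced, chr19:43664435-43665790, minus strand: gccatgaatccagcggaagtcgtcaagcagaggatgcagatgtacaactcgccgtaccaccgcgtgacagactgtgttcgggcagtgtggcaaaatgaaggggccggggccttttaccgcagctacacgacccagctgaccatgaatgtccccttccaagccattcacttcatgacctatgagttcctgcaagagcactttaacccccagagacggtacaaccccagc
Slc25a37, codons 160 to 235, spliced, chr14:69245146-69247599, minus strand: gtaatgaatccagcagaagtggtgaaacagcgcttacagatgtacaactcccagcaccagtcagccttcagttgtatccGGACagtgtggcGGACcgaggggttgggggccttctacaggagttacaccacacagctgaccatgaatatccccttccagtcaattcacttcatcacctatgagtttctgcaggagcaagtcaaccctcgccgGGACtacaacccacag
Slc25a4, codons 81 to 114, chr8:46209278-46209379, minus strand: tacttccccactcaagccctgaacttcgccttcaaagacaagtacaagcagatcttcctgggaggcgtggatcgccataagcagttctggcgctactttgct
Slc25a5, codons 81 to 114, chrX:36796972-36797073, plus strand: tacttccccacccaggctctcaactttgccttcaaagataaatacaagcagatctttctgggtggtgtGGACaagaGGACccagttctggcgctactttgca
The stretches of the iron importers were identical at 164 of 228 bases (71.9%), with 0 GGAC in Slc25a28 and 3 in Slc25a37. Those of the ADP and ATP exchangers were identical at 82 of 102 bases (80.4%), with 0 GGAC in Slc25a4 and 2 in Slc25a5. With no GGAC in 1 stretch of either pair, none could stand at the same place in both. The counts hold for the printed stretches only. The whole DMSO peak of Slc25a28 in its last exon held 3 GGAC, and the Dox peak of Slc25a4 in exon 2 held 2. The stretches of both phosphate carriers held 2 GGAC each. The stretches of the phosphate carriers differ in length and were not compared base by base.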

How the data were processed

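Per the methods and the submitters' processing notes, the authors filtered reads with fastp (0.19.4), aligned them to mm10 with HISAT2 (2.2.1) and called peaks of IP over input with exomePeak2, whose version and settings were not given in the sources used here. The deposited files give 1 peak list per treatment with exon blocks and a value read as the authors' −log10 p-value, the score; how replicates were combined, and whether it is adjusted, was not stated. Longer lists can come from deeper libraries.

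Peaks were assigned to GENCODE M21 exons by at least 1 base on the same strand. Positions used the transcript with the longest coding sequence, and the middle base of the peak. Near-identical loci were those with at least 98% identity over 90% of a peak (blastn 2.17.0). Proteins were aligned globally with Biopython 1.88 and BLOSUM62. Wilson 95% intervals cover counting error only. Sequences were read from GRCm38 with pysam 0.24.0 in Python 3.11.15, and values were plotted with matplotlib 3.10.9. The assignment, overlap, position and motif steps were tested on simulated peaks.

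The members and lists were chosen with earlier results of these data known. Genes were named by rule: the 3 with most peaks in each substrate list, the owners of the 5 best peaks of each list, genes in the Dox list only, the 5 DMSO-only genes with most peaks, the 3 with the lowest single peak, the 3 with the widest difference in each direction, and up to 3 Slc genes with peaks in their span but not in their exons. Some genes that this rule names are not reported here. The pairs of relatives, the values per kb, the places of best peaks in genes with equal numbers of peaks and other genes, such as Slc3a2, Slc25a4, Slc25a37, Slc29a1 and Slc30a1, were chosen after their values were seen. Alternatives covered the score, list size, strand, single-gene assignment, near-identical loci, overlap, transcript, window and motif.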

Additional observations from a re-analysis of the deposited data

How the results depend on the processing

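Of 66 values under alternative settings, 36 stayed within their interval or 1.5 times the count and 30 moved further. Assigning each peak to 1 gene, taking peaks on either strand, leaving out near-identical loci and using the longest transcript moved none of the values they were applied to. A score of at least 15 left 18 genes in either list, 12 in DMSO, 10 in Dox, 8 in DMSO only and 6 in Dox only, with 14 and 10 peaks. At that score 28.6% of the DMSO and 40% of the Dox peaks were shared, 21.4% and 60% lay at the stop codon, and 71.4% and 90% held GGAC. Equal list sizes left 8 genes in DMSO only and 6 in Dox only, with a ratio of 0.963. The shares of overlap were then 77.9% (DMSO) and 84.6% (Dox), and GGAC was present in 72.5% of DMSO peaks. The shares over all protein-coding genes are not given here for equal list sizes or for a score of at least 15. The counts of genes in 1 list only at these settings are therefore no comparison with other genes. With 50% of a peak required to overlap, sharing fell to 50.3% of the DMSO peaks, and with 50% required of each of the peaks it was 46.2% for DMSO and 66.2% for Dox. A window of 100 nt at the stop codon held 19.9% and 20.5% of the peaks, and one of 400 nt 42.4% and 46.97%. DRACH was present in 86.7% and 83.1%, and GAC in 82.6% and 81.6%. A stricter overlap, another window and a less strict motif shift a share by construction. The cause of the other moves was not tested, and at a score of at least 15 the share at the stop codon was lower than over all peaks in DMSO and higher in Dox, over 14 and 10 peaks. No paired analysis was possible because the 2 replicates of a treatment were already merged into 1 peak list, and for the same reason no replicate could be left out. Depth was not analysed here and limits every comparison of numbers between the lists.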

Other observations

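Whole Slc families had no gene with a peak in either list. Among them was Slc22, the organic ion carriers of kidney and liver, with 0 of 25 genes. Slc5, which includes the sodium-coupled sugar carriers, had 0 of 13, and Slc17 had 0 of 9. In other families both genes of Slc20 had a peak, and of the 2 Slc52 genes 1 had DMSO peaks only and 1 a Dox peak only. Peaks were also found for 6 of 14 metal carriers of Slc39. In Slc7 they were found for 5 of 16 genes, among them Slc7a6os, whose symbol does not name a carrier. Over all protein-coding Slc genes the share was 23.2%, and over all protein-coding genes 28.3%. Most families hold few genes, and differences between them were not tested. In Slc7 the light chains Slc7a5, Slc7a6 and Slc7a11 had peaks, those of Slc7a6 and Slc7a11 in the DMSO list only. Slc7a11, the cystine carrier, had 1 short peak (25 nt, score 10.7) that had a near-identical locus elsewhere.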
